A study of Mus musculus with 8 samples.

Results

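The mRNAs of 8 genes of the mTOR, Akt and Sgk1 signalling pathway were described in mature (MII) mouse oocytes, namely Mtor, Rptor, Rictor, Tsc1, Tsc2, Rheb, Akt1 and Sgk1. They were chosen by symbol, and all 8 of 8 were found in both the table of ribosome-bound mRNA (8898 genes) and the table of total mRNA (10530 genes), which have 8537 genes in common. Oocytes came from RiboTagF/F;Zp3-Cre mice on a C57BL/6 background. All groups carried both alleles, so that an HA-tagged ribosomal protein was made where Cre had acted, and the Zp3 promoter drives Cre in growing oocytes. The young mice were 1 month old and the old mice were retired breeders of 12 to 15 months. Ovulation was induced in all females with 5 IU PMSG followed after 48 h by 10 IU hCG, and 13 h after the latter the oocytes were taken. Each age was represented by 2 pools of 200 oocytes. A portion of 10% of each lysate served as input (total mRNA), while ribosome-bound mRNA (HA) was precipitated from the rest with an HA antibody, which gave 8 libraries.

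Mtor encodes a kinase that works in a pair of complexes. In mTORC1 it is joined by the adaptor raptor (Rptor) and promotes protein synthesis by phosphorylating S6 kinases and eIF4E-binding proteins, and in mTORC2 it is joined by rictor (Rictor) and phosphorylates Akt and Sgk kinases. The small GTPase Rheb switches mTORC1 on, and the complex of hamartin (Tsc1) and tuberin (Tsc2) switches Rheb off, a brake that Akt releases. In the oocyte, transcription is silent during maturation, so that protein synthesis depends on stored mRNAs, and the pathway is known for its part in the activation of primordial follicles and in translation during meiosis.

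Many stored mRNAs are translated according to cytoplasmic polyadenylation elements (CPEs) in their 3'-UTR, the binding sites of CPEB1. The canonical sequences TTTTAT and TTTTAAT were searched on the sense strand of the 3'-UTRs, using for a gene the longest one annotated (GENCODE M21, GRCm38). At least 1 was found in 5 of the 8 genes, compared with 70.7% of 7924 genes in both tables that have an annotated 3'-UTR. Rictor held 6, Sgk1 held 2, and Tsc1, Rheb and Akt1 held 1 each, whereas Mtor, Rptor and Tsc2 held none. The element closest to the 3' end of each of the 5 genes is printed 5′ to 3′ on the gene's strand, with the CPE in capitals, since its distance from the end of the mRNA is a feature of CPE-dependent polyadenylation.
Rictor, chr15:6799892-6799921, plus strand, 491 bases from the 3' end: agtggtaaaatcTTTTAATgtatgattgtt
Tsc1, chr2:28690820-28690849, plus strand, 330 bases from the 3' end: gacatagtttagTTTTATaatcaatcatgg
Rheb, chr5:24803391-24803420, minus strand, 580 bases from the 3' end: tatgaccaagaaTTTTATcggcattaattt
Akt1, chr12:112654091-112654120, minus strand, 281 bases from the 3' end: acatttaggggaTTTTAATcttggtgacag
Sgk1, chr10:21999766-21999795, plus strand, 119 bases from the 3' end: tgtaaaccatcaTTTTAATgtactgtaatt
None of these elements lay in the last 100 bases of the 3'-UTR, where 22.2% of the 7924 genes had one, and Sgk1 came nearest. A match is a sequence, not a shown binding site.

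The deposited values were CPM (the reads of a gene corrected for the depth of its library, with TMM factors set separately for HA and input), from which whole read numbers could be recovered. Reads on genes numbered 37817382 to 59688578 in the HA libraries and 38276453 to 60052814 in the input libraries, so that 3 reads, the floor used here, came to between 0.0388 and 0.111 CPM in HA and between 0.0435 and 0.0788 CPM in input. The reads carry no molecular identifiers, and floors therefore cover counting error only. All 10 oocyte markers were in both tables, with summed levels of 11071 to 17644 CPM in HA and 8794 to 9905 CPM in input. Of 14 cumulus and granulosa markers, 4 were in the HA table, with summed levels of 144 and 88.8 CPM in old and 199 and 207 CPM in young pools, and 8 in the input table (154 to 306 CPM). Amh, Foxl2, Lhcgr, Cyp11a1, Hsd17b1 and Ptx3 were listed in neither table. Of 9 oviduct, blood and immune markers, only Epcam was listed, in input (0.0581 to 57.6 CPM). The replicates of old HA stood furthest apart, with a median fold of 3.30 between the 2 libraries over all genes, compared with 1.81 in young HA, 1.83 in old input and 1.57 in young input.

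The question put to the data was whether total mRNA, ribosome-bound mRNA or their ratio differed between old and young oocytes. Levels were compared with limma on log2(CPM + 1), old minus young, a scale that understates the change of genes with low CPM, and p-values were adjusted over all genes of a table. Translation efficiency (TE) was HA CPM over input CPM in the same pool, and its log2 value was tested in the same way. None of the 8 genes passed an adjusted p of 0.05 in input, HA or TE by limma, which called 0.0095% of genes in input, 0% in HA and 0% in TE. None reached an unadjusted p of 0.05 in limma either, whereas 2.71% of all input genes did so as higher and 3.48% as lower in old oocytes. The corresponding shares were 4.28% and 10.5% in HA and 2.98% and 3.51% in TE. When the likelihood ratio test of edgeR, which the study used for HA and for input, was run on recovered reads, 0 of the 8 genes passed. This compares with 0.475% of all genes in input, 3.32% in HA and 2.48% in TE, and edgeR's quasi-likelihood test and DESeq2 called 0 of 8 as well. For TE these count tests took the HA and input libraries of a pool as independent, whereas the limma test was made within pools. With 2 pools against 2, an exact two-sided permutation test of 1 gene cannot give a p below 0.333. A p above the threshold does not show that levels were equal, and the intervals below give the differences these pools leave possible.

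**Figure D1:**
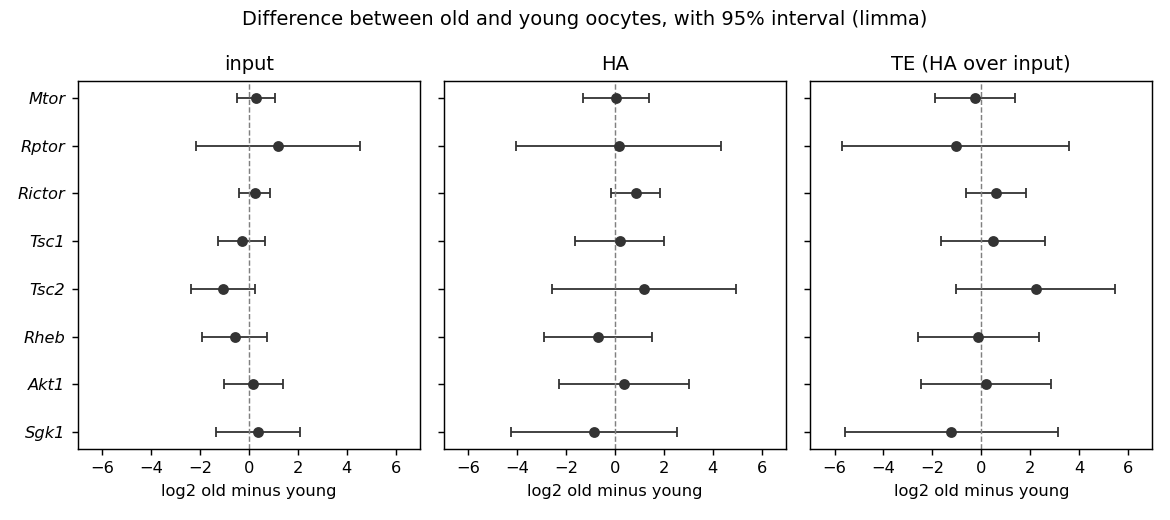
Difference between old and young oocytes for the 8 genes in input, HA and TE. Points are the log2 difference (old minus young) fitted by limma on log2(CPM + 1), and bars are 95% confidence intervals. Every interval includes 0, those of Mtor and Rictor in input are the narrow ones, and those of Rptor and Sgk1 in HA and TE span several log2 units.

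Levels were first compared between genes after division by exon length, on the scale of CPM per kb of exon. This length joined the exons of all annotated transcripts of a gene and can exceed that of its mRNA. For Rheb it was 7721 bases, with a longest 3'-UTR of 841 bases. The study counted reads on the feature type "gene", so that the order of genes is approximate. In input, Rictor (16.7 CPM per kb, mean of the 4 libraries), Mtor (14.2) and Akt1 (11.6) formed an upper group. Tsc1 (6.10), Rheb (5.11), Sgk1 (4.86) and Tsc2 (3.88) followed, and Rptor (0.812) was last. Neighbours in this order overlapped in their 4 libraries except Akt1 with Tsc1 and Tsc2 with Rptor. In HA, Rictor stood alone at 34.9 CPM per kb, with its lowest library above the highest of Mtor (10.7). Tsc1 (7.82), Rheb (6.46) and Akt1 (6.11) overlapped with each other, and Akt1 did not overlap with Tsc2 (1.51). Sgk1 (0.928) and Rptor (0.642) were the lowest in HA. Thus, per kb of annotated exon, the mTORC2 subunit Rictor had the highest mean of the 8 genes in both fractions, although it overlapped with Mtor in input. The mTORC1 subunit Rptor had the lowest mean over the 4 libraries in both. In HA it overlapped with Sgk1, whose mean was below that of Rptor in old (0.507 against 0.886) and above it in young (1.35 against 0.398). Each fraction was scaled on its own, so that a CPM per kb in HA is not directly comparable with one in input.

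**Figure D2:**
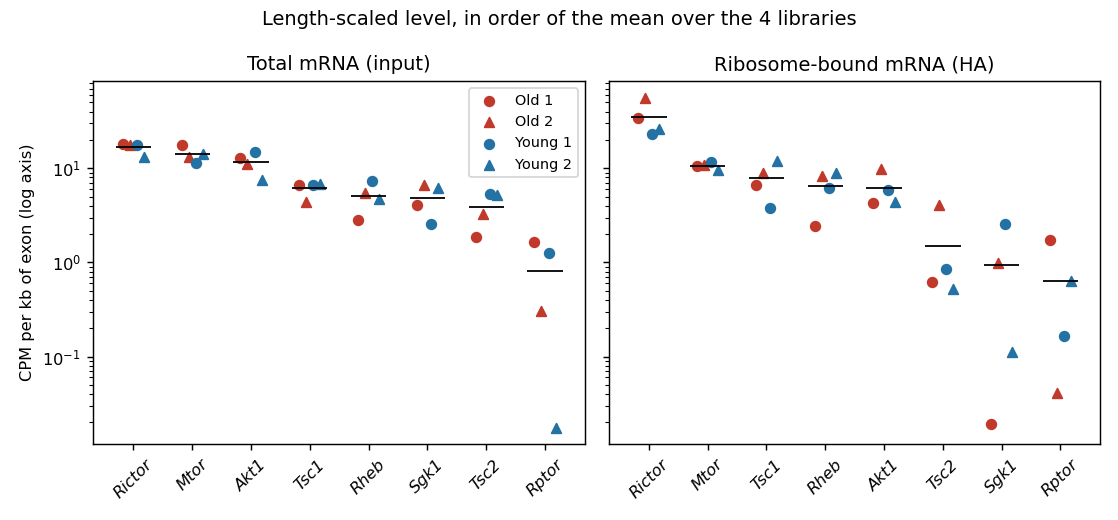
Level of the 8 genes in CPM per kb of exon, on a log axis, in input and HA, ordered by the mean over 4 libraries (black line). Points are single libraries, with colour for age and shape for pool. Rictor is separated from the other genes in HA, and Rptor and Sgk1 spread over more than a factor of 10 between libraries in HA.

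Mtor, the kinase itself, is at chr4:148448611-148557683 on the plus strand and had an even level. Total Mtor mRNA was 181 and 134 CPM in the old pools and 114 and 143 CPM in the young pools. Its ribosome-bound mRNA was 107.7 and 109.5 CPM in the old and 119 and 96.0 CPM in the young pools. Old and young values overlapped in both fractions, and the HA means were 109 ± 1.32 CPM in old and 107 ± 16.0 CPM in young (SD, n = 2 pools each). In pooled oocytes, fewer oocytes holding an mRNA and less of it per oocyte cannot be told apart. The log2 difference in HA was 0.02 (95% interval -1.33 to 1.38, limma adjusted p = 0.996), and that in input was 0.28 (-0.49 to 1.05, limma adjusted p = 0.933). The TE of Mtor was 0.596 and 0.817 in the old pools, against 1.04 and 0.669 in the young ones, close to the median of all genes, which lay between 0.572 and 0.729. Its log2 TE differed by -0.26 (-1.89 to 1.38). In CPM without the TMM factors, HA values were 96.5 and 78.4 in the old pools, against 154 and 116 in the young ones, and both old pools were then below both young ones. On that scaling the median of all genes fell by 0.68 in HA, compared with -0.14 with TMM.

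Rictor, the defining subunit of mTORC2, is at chr15:6708379-6800401 on the plus strand. Total Rictor mRNA was 309 and 297 CPM in the old and 302 and 222 CPM in the young pools. Its ribosome-bound mRNA was 575 and 956 CPM in the old and 389 and 442 CPM in the young pools. Both old HA values were above both young ones, whereas input values overlapped, and Rictor was the only one of the 8 genes with such a separation upwards in HA, a pattern that 17.2% of all HA genes showed. The HA means were 765 ± 269 CPM and 415 ± 37.5 CPM (SD, n = 2 pools each), a level in old of 184% of that in young. The log2 difference in HA was 0.84 (SE 0.42, 95% interval -0.17 to 1.85, limma adjusted p = 0.439), and in input 0.23 (SE 0.28, adjusted p = 0.937). Over 17 alternatives, some of which cannot change it, the HA difference lay between 0.18 and 1.20 and stayed above 0. The separation of the groups depended on the scaling, since in CPM without TMM factors the HA values were 516 and 684 in the old pools, against 504 and 532 in the young ones, and overlapped. Relative to the median of all genes, the HA difference was 0.97 with TMM, 0.88 without it, 1.00 after scaling to the median ratio and 0.24 after quantile normalization.

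Rictor mRNA was also well loaded with ribosomes in every pool. Its TE was 1.86 and 3.22 in the old pools, against 1.29 and 1.99 in the young ones, between the 76.9th and the 86.5th percentile of all genes of its pool. No other of the 8 genes had a TE above 1 in all 4 pools. Old and young TE overlapped, and their log2 difference was 0.61 (SE 0.53, 95% interval -0.61 to 1.83, limma adjusted p = 0.832). Rictor is also the gene with 6 CPEs in a 3'-UTR of 4165 bases, with the last element shown above. This is 1.44 CPEs per kb, compared with a median of 1.12 over the genes in both tables and 1.86 in Sgk1. A link between CPEs and TE was not tested.

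Rptor, the adaptor that brings substrates to mTORC1, is at chr11:119602905-119899576 on the plus strand and was low and uneven. In input it had 22.3 and 4.07 CPM in the old and 17.1 and 0.237 CPM in the young pools, from 1216, 203, 1179 and 9 reads. In HA it had 23.3 and 0.554 CPM in the old and 2.24 and 8.50 CPM in the young pools, from 981, 15, 173 and 482 reads. Replicates of 1 age were thus further apart than the ages, and the groups overlapped in both fractions. The log2 difference was 1.20 in input (SE 1.46, adjusted p = 0.935, limma) and 0.15 in HA (SE 1.76, adjusted p = 0.990, limma). TE ran from 0.131 in 1 young pool to 35.9 in the other, where the input level rested on 9 reads, and was 1.04 and 0.136 in the old pools. Its log2 difference of -1.05 (SE 2.03) turned to 1.66 without young pool 2. Rptor shares 350 exonic bases (2.60% of its exon bases) with the antisense gene Rptoros, which was in neither table, and reads were counted without regard to strand.

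**Figure D3:**
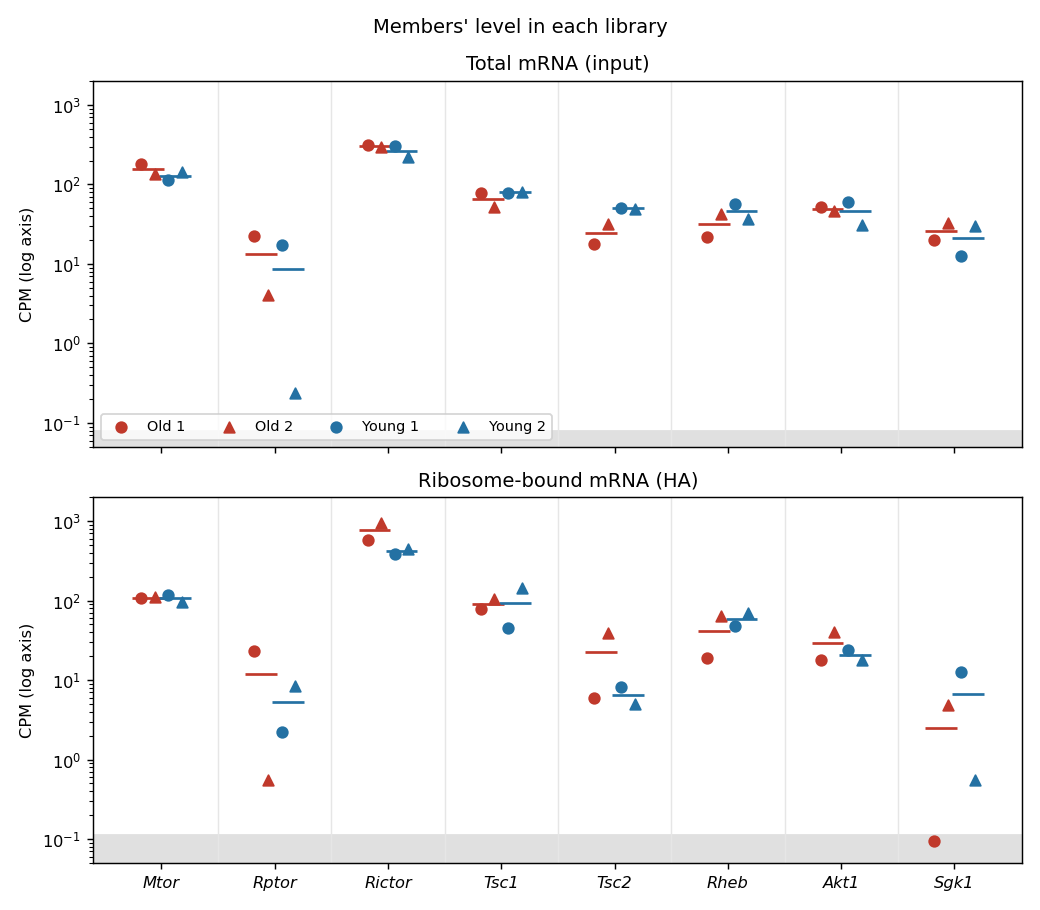
Level of the 8 genes in each library, in CPM on a log axis, for input (top) and HA (bottom). Points are libraries, short lines are the means of 2 pools, and the grey band marks the values at or under 3 reads in the shallowest library. Rictor in HA and Tsc1 and Tsc2 in input do not overlap between ages, and Sgk1 in HA reaches the grey band in 1 old library.

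Tsc1 and Tsc2 encode the brake on Rheb, and both had old input values below the young ones without passing the test. Tsc1 is at chr2:28641228-28691167 on the plus strand. Total Tsc1 mRNA was 78.0 and 52.4 CPM in the old and 78.7 and 79.7 CPM in the young pools, so that 1 old pool was within 1 CPM of 1 young pool. The means were 65.2 ± 18.1 and 79.2 ± 0.685 CPM (SD, n = 2 pools each), and the log2 difference was -0.30 (SE 0.42, limma adjusted p = 0.947). In HA, Tsc1 had 78.7 and 104 CPM in the old and 44.6 and 143 CPM in the young pools, where the young values enclosed the old ones. The log2 difference in HA was 0.18 (95% interval -1.65 to 2.01, limma adjusted p = 0.967), and that in TE was 0.48 (-1.64 to 2.61). TE was 1.01 and 1.99 in the old pools, against 0.566 and 1.79 in the young ones.

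Tsc2, which carries the activity that inactivates Rheb, is at chr17:24595816-24632630 on the minus strand. Total Tsc2 mRNA was 17.8 and 31.5 CPM in the old and 50.7 and 49.5 CPM in the young pools. Both old values were below both young ones, and the mean in old (24.7 ± 9.65 CPM, SD, n = 2 pools) was 49.2% of that in young (50.1 ± 0.871 CPM, n = 2 pools). The log2 difference was -1.05 (SE 0.57, 95% interval -2.36 to 0.26, limma adjusted p = 0.790). Tsc1 and Tsc2 were the 2 of 8 genes with both old input values below both young ones, compared with 18.9% of all input genes, and 0 of 8 were separated upwards, compared with 16.4% of all. Both separations were also present in CPM without TMM factors. Tsc2 shares 693 exonic bases (7.20% of its exon bases) with Pkd1, which lies on the opposite strand and was listed in input only, so that reads there cannot be assigned to 1 of them by strand.

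Ribosome-bound Tsc2 mRNA did not follow the input. It was 5.99 and 38.9 CPM in the old and 8.16 and 4.97 CPM in the young pools, where 1 old library was far above the other 3. The log2 difference in HA was 1.17 (SE 1.58, limma adjusted p = 0.845), and it was -0.08 without old pool 2. The TE of Tsc2 was 0.336 and 1.24 in the old pools, against 0.161 and 0.100 in the young ones. Both old values were above both young ones, a pattern of 16.7% of all genes, and Tsc2 was the 1 gene of 8 that showed it. The log2 difference in TE was 2.22 (SE 1.43, 95% interval -1.02 to 5.47, limma adjusted p = 0.758), with an adjusted p of 0.478 by edgeR's likelihood ratio test and of 0.213 by DESeq2. Over 17 alternatives, some of which cannot change it, the TE difference stayed above 0, between 1.36 and 3.09. In young oocytes Tsc2 was among the least ribosome-loaded mRNAs, at the 4.82nd and 7.81st percentile of its pools, and in old oocytes it was at the 33.8th and 66.1st. These ranks are not directly comparable between ages, since low TE values were more frequent in the old pools. A TE of 0.153 (Slc38a9) was at the 23.4th percentile in old pool 1, and one of 0.149 (Sgk1) at the 31.7th in old pool 2.

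Rheb, the GTPase that activates mTORC1, is at chr5:24802823-24842624 on the minus strand. Its total mRNA was 21.8 and 42.1 CPM in the old and 57.1 and 36.8 CPM in the young pools. Its ribosome-bound mRNA was 19.0 and 63.8 CPM in the old and 47.7 and 69.1 CPM in the young pools. Old and young overlapped in both fractions, although the lowest value of each fraction was that of old pool 1. The log2 difference was -0.58 in input (SE 0.59, adjusted p = 0.919) and -0.70 in HA (SE 0.93, adjusted p = 0.843), both by limma, and the latter was 0.15 without old pool 1. In CPM without TMM factors, both old HA values (17.1 and 45.6) were below both young ones (61.9 and 83.1). The TE of Rheb was 0.873 and 1.51 in the old pools, against 0.836 and 1.87 in the young ones, above the median of all genes in each pool, and differed by -0.12 on the log2 scale (SE 1.09, limma adjusted p = 0.986).

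Akt1, the kinase that mTORC2 phosphorylates and that inhibits the Tsc1 and Tsc2 complex, is at chr12:112653821-112674884 on the minus strand. Its total mRNA was 52.6 and 45.8 CPM in the old and 61.0 and 30.9 CPM in the young pools. Its ribosome-bound mRNA was 17.7 and 40.7 CPM in the old and 23.8 and 17.9 CPM in the young pools. The groups overlapped in both fractions, with log2 differences of 0.17 in input (95% interval -1.03 to 1.38, limma adjusted p = 0.982) and 0.37 in HA (-2.30 to 3.03, limma adjusted p = 0.951). TE was under 1 in every pool, at 0.337 and 0.887 in the old pools, against 0.391 and 0.578 in the young ones, and differed by 0.20 on the log2 scale (SE 1.18, limma adjusted p = 0.979). It was the only one of the 8 genes with a TE under 1 in all 4 pools.

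Sgk1, a kinase related to Akt that mTORC2 also phosphorylates and that regulates ion transport, is at chr10:21882184-21999903 on the plus strand. Its total mRNA was 19.8 and 32.8 CPM in the old and 12.7 and 30.0 CPM in the young pools, from 1078, 1634, 873 and 1141 reads. Its ribosome-bound mRNA was 0.0950 and 4.88 CPM in the old and 12.7 and 0.546 CPM in the young pools, from 4, 132, 981 and 31 reads. Replicates of 1 age differed in HA by a fold of 51.3 in old and by more than the ages did, and all groups overlapped. The log2 difference was 0.37 in input (SE 0.74, limma adjusted p = 0.975) and -0.86 in HA (SE 1.43, 95% interval -4.27 to 2.55, limma adjusted p = 0.884). The HA difference turned to 0.71 without young pool 1 and to 0.35 without old pool 1. The TE of Sgk1 was 0.00480 and 0.149 in the old pools, against 1.00 and 0.0182 in the young ones. In 3 of the 4 pools it was thus well under the median of all genes, between the 2.24th and the 31.7th percentile, and in young pool 1 at the 66.1st. Its log2 difference in TE was -1.22 (SE 1.91, 95% interval -5.57 to 3.12, limma adjusted p = 0.912). Sgk1 is also transcribed in granulosa cells, whose listed markers in HA had a lower sum in both old pools (144 and 88.8 CPM) than in both young pools (199 and 207 CPM). Cyp19a1 (80.4 and 69.7 against 142 and 174 CPM) and Ptgs2 were lower in both old pools, whereas Nr5a2 and Fshr overlapped between ages. The input sums overlapped, at 154 and 306 CPM in old and 195 and 277 CPM in young pools. The part of these cells in the Sgk1 values was not tested.

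**Figure D4:**
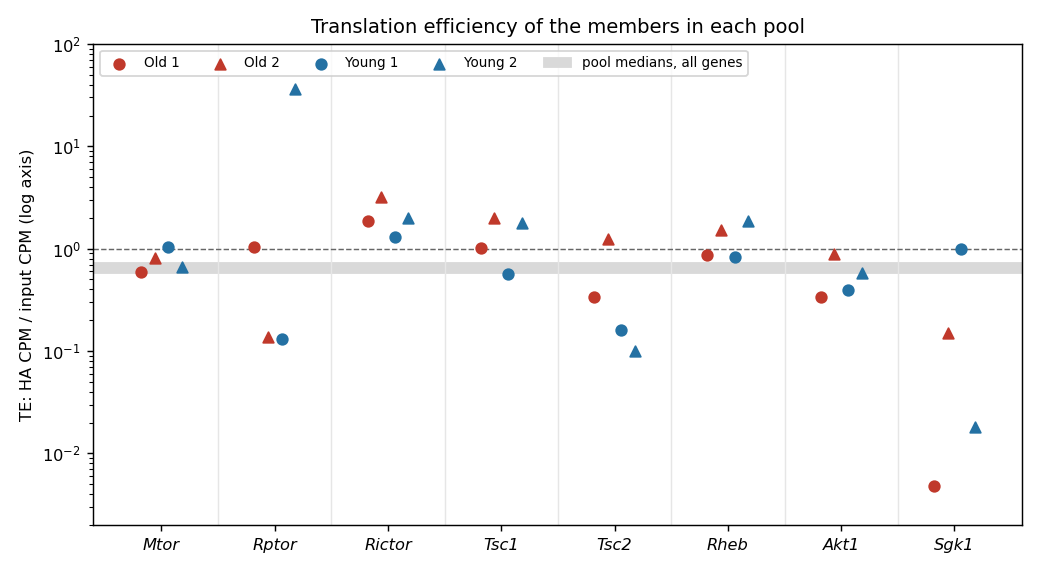
Translation efficiency (HA CPM over input CPM of the same pool, log axis) of the 8 genes. Points are pools, the dashed line marks a TE of 1, and the grey band spans the medians of all genes in the 4 pools (0.572 to 0.729). Rictor lies above 1 in all pools, both old values of Tsc2 exceed both young ones, and Rptor and Sgk1 range over more than a factor of 100.

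Considered as a group, 5 of the 8 genes were higher in old input, with a median log2 difference of 0.20, compared with -0.03 over all genes tested. In HA, 6 of 8 were higher with a median of 0.16, compared with -0.14 over all genes, but without TMM 2 of 8 were. Relative to the median of all genes, 6 of 8 were above it in HA with TMM, without it and after scaling to the median ratio, and 5 of 8 after quantile normalization. In TE, 4 of 8 were higher, with a median of 0.04 compared with -0.10 over all genes. None of the 8 had both old values below both young ones in HA, as 24.7% of all genes did, or in TE, as 22.8% did. In CPM without TMM factors these counts were 2 and 1 (Mtor and Rheb in HA, Mtor in TE). The shares of all genes on that scaling were not computed, and their median difference there was -0.68 in HA and -0.48 in TE. The fold between replicates exceeded the median of all genes in 4 of 8 genes in old HA, 3 in young HA, 2 in old input and 3 in young input. A fold of over 2 between the 2 pools of 1 age was seen in 5 of 8 genes in old HA, 3 in young HA, 1 in old input and 2 in young input.

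The wider pathway was examined with 6 lists of 111 genes, of which 84 were in the input table, 74 in HA and 73 in both. None passed an adjusted p of 0.05 by limma in input, HA or TE. At an unadjusted p of 0.05, limma gave 2.71% of all input genes as higher and 3.48% as lower. The shares of all genes were 4.28% and 10.5% in HA, and 2.98% and 3.51% in TE. Of the list genes, limma gave 4 higher and 2 lower in input, 2 higher and 3 lower in HA, and 2 higher and 2 lower in TE. Named after their values were seen, these were Sgk3, Tti1, Grb10 and Gsk3a (higher) and Pik3r2 and Lamtor2 (lower) in input, Deptor and Foxo3 (higher) and Tbc1d7, Prkaa1 and Poldip3 (lower) in HA, and Prr5 and Foxo3 (higher) and Pik3c3 and Stradb (lower) in TE. At an adjusted p of 0.05, edgeR's likelihood ratio test called 0.475% of all genes in input, 3.32% in HA and 2.48% in TE. Of the list genes, 0 passed in input, 0 in HA and 1 in TE. That gene, named after its values were seen, was Stradb, which encodes a pseudokinase partner of Stk11 (Lkb1). Its total mRNA was 151 and 149 CPM in the old and 80.7 and 111 CPM in the young pools, whereas its ribosome-bound mRNA was 4.09 and 7.58 CPM in the old and 39.2 and 60.3 CPM in the young pools. The groups did not overlap in either fraction and stood in opposite order. Its log2 difference in TE was -3.57 (SE 1.01, limma adjusted p = 0.739), with an adjusted p of 0.0376 by edgeR's likelihood ratio test and of 0.00502 by DESeq2. The latter 2 tests ignored that HA and input came from the same pools, and the limma test within pools did not call Stradb.

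Upstream of Akt, 20 of 24 genes for receptors, phosphatidylinositol 3-kinases, their phosphatases and the Akt and Sgk paralogs were in input and 17 in HA and TE. Their median log2 difference was -0.04 in input, -0.02 in HA and -0.27 in TE. For this and the following lists, the medians over all genes were -0.03, -0.14 and -0.10. Pik3ca, the catalytic subunit, had 54.4 and 137 CPM in old and 138 and 122 CPM in young HA, with a difference of -0.58 (SE 0.67). Pdpk1, which phosphorylates Akt and Sgk kinases, was uneven in old HA, with 503 and 168 CPM in old and 362 and 239 CPM in young HA and a difference of -0.02 (SE 0.62). Both genes overlapped between ages in both fractions.

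The paralogs of Akt1 and Sgk1 that are described here did not pass the test either. Akt2 had 24.6 and 12.3 CPM in old and 11.8 and 29.4 CPM in young HA, with a difference of -0.10 (SE 1.27). Sgk3 was not in the HA table, and in input it had 2.54 and 4.73 CPM in old and 0.0145 and 0.131 CPM in young pools (138, 236, 1 and 5 reads), with a difference of 2.07 on the log2(CPM + 1) scale (limma adjusted p = 0.778).

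Of the other subunits and assembly factors of the mTOR complexes, 6 of 9 were in input and 5 in HA and TE, with median differences of -0.07, 0.71 and 0.41. Mlst8, a subunit common to both complexes, was in neither table. Akt1s1 (PRAS40), an inhibitor of mTORC1, was in input only, at 2.83 to 7.64 CPM. Mapkap1 (Sin1), which joins Rictor in mTORC2, was even in HA, at 310 and 294 CPM in the old and 317 and 302 CPM in the young pools, with a difference of -0.04 (SE 0.42). Its input was 503 and 457 CPM in the old and 328 and 419 CPM in the young pools, with a difference of 0.37 (SE 0.26, limma adjusted p = 0.851). Rictor and Mapkap1, partners in 1 complex, thus differed in their HA values, and this difference between genes was not tested.

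Among other genes of the TSC complex, Rheb and energy sensing, 14 of 19 were in input, 13 in HA and 12 in TE, with median differences of -0.78, -0.40 and 0.27. Tbc1d7, the third subunit of the TSC complex, had 2 and 1 reads in old HA (0.0475 and 0.0370 CPM) and 2.71 and 6.12 CPM in young HA. Prkaa1, a catalytic subunit of the AMP-activated kinase, had 5 and 0 reads in old HA and 4.99 and 2.64 CPM in young HA. Both were thus at or near the 3-read floor in old HA only. Their differences of -2.30 (limma adjusted p = 0.297) and -2.14 (limma adjusted p = 0.297) depend on the pseudocount. Stk11, the kinase that activates AMPK, had both old input values (2.65 and 11.6 CPM) below both young ones (37.2 and 18.0 CPM), with a difference of -1.99 (limma adjusted p = 0.781). Ddit4 (Redd1), a stress-induced inhibitor of mTORC1, had 59.4 and 221 CPM in old and 112 and 118 CPM in young HA, and a TE above 1 in each pool (1.66 to 7.51).

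Amino acid sensing was represented by 20 of 26 genes in input and 17 in HA and TE, with median differences of -0.10, -0.13 and -0.04. Rragc, a Rag GTPase that recruits mTORC1 to the lysosome, was even, with 566 and 651 CPM in old and 616 and 664 CPM in young HA and a difference of -0.07 (95% interval -0.95 to 0.81). Its partner Rraga had 136 and 536 CPM in old and 264 and 330 CPM in young HA, with a TE of 2.08 to 6.61. Flcn, the GTPase activator for RagC, had 62.2 and 127 CPM in old and 64.4 and 99.5 CPM in young HA and overlapped between ages in input as well. None of the 3 had a limma adjusted p under 0.888 in any comparison.

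The targets of mTORC1 were in input for 14 of 18 genes and in HA and TE for 12, with median differences of 0.19, -0.54 and -0.99. Rps6kb1, the S6 kinase, had both old input values (110.2 and 129.9 CPM) above both young ones (72.0 and 63.0 CPM), with a difference of 0.82 (SE 0.37, limma adjusted p = 0.778). In HA it had 113 and 15.5 CPM in old and 82.0 and 28.5 CPM in young pools, with a difference of -0.19 (SE 1.17). Eif4ebp1, the translation repressor, was in neither table, and its relative Eif4ebp2 had 0.296 to 12.7 CPM in HA and a TE under 0.3 in each pool (0.0094 to 0.261). Eef2k, the elongation factor kinase, had 288 and 168 CPM in old and 239 and 163 CPM in young HA. Larp1, which binds mRNAs of the translation machinery, had 14.8 and 1.59 CPM in old and 14.0 and 13.0 CPM in young HA, with a difference of -1.18 (SE 1.60, limma adjusted p = 0.846).

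Targets of Akt and Sgk kinases were measured for 10 of 15 genes in all 3 comparisons, with median differences of 0.06 in input, 0.15 in HA and 0.44 in TE. Foxo3, the transcription factor that Akt keeps out of the nucleus and that holds primordial follicles dormant, had 2357 and 2605 CPM in old and 1427 and 1067 CPM in young HA. Its input values overlapped, at 1216 and 1099.9 CPM in the old and 1057 and 1227 CPM in the young pools. Its log2 difference was 1.00 in HA (SE 0.34, limma adjusted p = 0.297) and 0.98 in TE (SE 0.37, limma adjusted p = 0.739). Nedd4l, a ubiquitin ligase that Sgk1 inhibits, had both old HA values (516 and 483 CPM) above both young ones (268 and 264 CPM), with a difference of 0.91 (SE 0.40, limma adjusted p = 0.367). Unlike Foxo3, it was also separated in input, at 240 and 171 CPM in old and 145 and 155 CPM in young pools. Such upward separations were seen in 17.2% of all HA genes and 16.4% of all input genes. Gsk3b, a kinase that Akt inhibits, had 57.9 and 0.629 CPM in old and 47.3 and 69.1 CPM in young HA, with a difference of -2.57 (SE 1.78, limma adjusted p = 0.629).

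**Figure D5:**
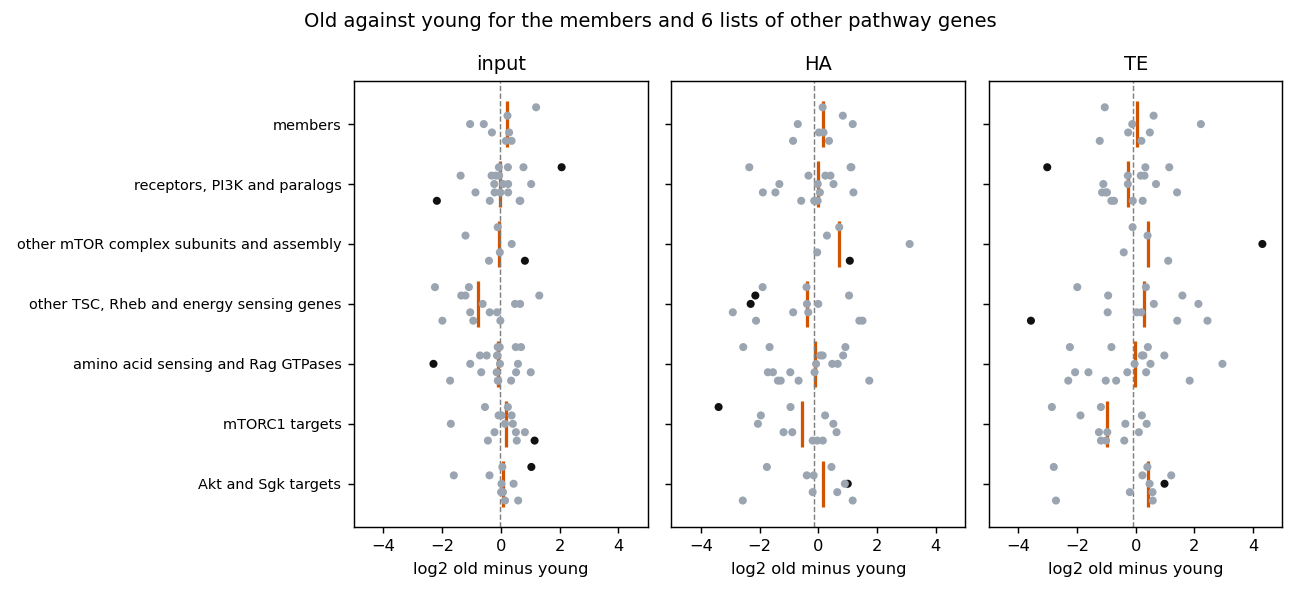
Log2 difference between old and young oocytes (limma on log2(CPM + 1)) for the 8 genes and the 6 lists of other pathway genes in input, HA and TE. Each point is a gene, black where the unadjusted p was under 0.05 and grey otherwise, orange lines are medians of a list, and the dashed line is the median of all genes. Points lie on both sides of 0 in every list, and none passed the adjusted threshold.

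The genes whose pattern was most like that of Mtor and Sgk1 were sought by Pearson's r of log2(CPM + 1) over the 8 libraries among the 8536 other genes in both tables. For Sgk1 they were Timm8a2 (0.970), Ptpn22 (0.970) and Gpr107 (0.966), and 63 genes exceeded 0.9. For Mtor they were Lgals12 (0.937), Gpr19 (0.929) and Fam178b (0.925), and 11 genes exceeded 0.9. The 8 libraries are pairs of HA and input from 4 pools scaled separately, so that a difference between the fractions contributes to these values, which are given as a description.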

How the data were processed

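The data were 8 RNA-Seq libraries, an HA and an input library of each of 4 pools of MII oocytes (2 pools per age). The authors trimmed reads (Trimmomatic 0.36), aligned them to GRCm38 with HISAT2, counted them on GENCODE M11 genes with HTSeq, not strand-specifically, and deposited signal values, namely CPM with TMM scaling per fraction. A threshold of 10 CPM in 2 or more libraries is given in the methods, and 5642 of 8898 genes in HA and 6775 of 10530 in input meet it. No column of a sample was left out (0 columns). Reads were recovered from the CPM (100% of values whole, within 0.01 of a read). The members and lists were chosen with earlier results of these data known.

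limma 3.58.1 (lmFit, eBayes with trend) was fitted to log2(CPM + 1) over all genes of a table, two-sided, with Benjamini-Hochberg adjustment and a threshold of 0.05. The log2 TE of a pool was the difference of its HA and input values. edgeR 4.0.16 (likelihood ratio and quasi-likelihood tests) and DESeq2 1.42.0 on recovered reads, pseudocounts of 0.1 and 5, filters, scalings, eBayes options, a replicate block and leaving out each pool were alternatives. The fits were tested on simulated data. Named genes were the 8 members, 24 genes of the lists chosen for their role (some are not reported here), any list gene with a limma adjusted p under 0.1 (none) and the 3 genes most correlated with Mtor and with Sgk1. R 4.3.3, Python 3.11.15, pandas 2.3.3, numpy 2.4.6 and matplotlib 3.10.9 were used. Gene positions, exon lengths, overlaps and 3'-UTRs were taken from GENCODE M21 on GRCm38, a later release than that used for counting. The study calls the 2 pools of an age independent biological samples, and no batch is named in the sources used here.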

Additional observations from a re-analysis of the deposited data

How the results depend on the processing

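No member was called under any of the alternatives, and of 406 single-member values under them, 365 kept their direction and 41 reversed, all of them uncalled. The cause of the reversals was not tested. The eBayes options, the replicate block, the filters and, for TE, a joint limma fit of HA and input cannot change a gene's log2 difference. Part of the 365 was therefore fixed in advance. With libraries rescaled to the same sum, the log2 differences were -0.015 for Akt1 in input, -0.61 for Mtor, -0.26 for Rptor, -0.45 for Tsc1 and -0.25 for Akt1 in HA, and -0.23 for Akt1 in TE. On that scaling, 2 members were higher in old HA and the median of the members in TE was -0.40. The other scalings moved Mtor to -0.51, Tsc1 to -0.26 and Sgk1 to 0.10 in HA (quantile normalization) and Rheb to 0.069 in TE (median log2 ratio). With a pseudocount of 0.1, Rptor in HA was -0.20. By both edgeR tests (likelihood ratio and quasi-likelihood), Tsc1 in HA was -0.033, Rptor in TE was 0.55 and Rheb in TE was 0.059. With DESeq2, Rptor in TE was 0.64, Rheb in TE was 0.30 and the median of the members in TE was 0.54. The pathway list genes called in TE rose from 0 to 1 (Stradb) with the likelihood ratio test.

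Leaving out each pool in turn gave these ranges in input: Rptor -0.74 to 3.14, Akt1 -0.31 to 0.65, Sgk1 -0.23 to 0.96, members higher in old 3 to 5 and their median -0.30 to 0.14. In HA they were Mtor -0.13 to 0.18, Rptor -1.83 to 2.13, Tsc1 -0.65 to 1.01, Tsc2 -0.082 to 2.43, Rheb -1.54 to 0.15, Akt1 -0.21 to 0.94, Sgk1 -2.43 to 0.71 and members higher in old 3 to 7. In TE they were Mtor -0.57 to 0.059, Rptor -3.77 to 1.66, Tsc1 -0.34 to 1.30, Rheb -0.69 to 0.45, Akt1 -0.48 to 0.87, Sgk1 -3.39 to 0.94, members higher in old 2 to 6 and their median -0.32 to 0.70. A lone pool is then assumed to vary like the other age.

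The replicate number was entered as a replicate block in another fit. Same-numbered old and young libraries share only the number, and their deviations correlated with r = 0.0786 in HA and 0.0269 in input over all genes. With the replicate block, 0 members were called in input, HA and TE, and Rictor in HA kept its difference of 0.84 with a limma adjusted p of 0.364. Read numbers limit Rptor and Sgk1 most among the members, with as few as 9 reads (input, young pool 2) and 4 reads (HA, old pool 1).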
